A study of Mus musculus with 6 samples.

Results

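Surface proteins are the handles by which skeletal and mesenchymal stem cells are sorted, and 10 genes of such markers were compared between Gli1+ and Gli1- cells of mouse costal cartilage. The genes were chosen by name: *Itgav* (CD51), *Thy1* (CD90), *Eng* (CD105), *Cd200*, *Pdpn*, *Nt5e* (CD73), *Mcam* (CD146), *Cd44*, *Lepr* and *Pdgfra* (CD140a). All 10 were present in the table of 54532 genes, each on 1 row, and all 10 were among the 14801 genes that had enough counts to be tested. None was lost to the filter on low counts. Each also had counts in every library, the fewest being 6 for *Thy1* in Gli1- replicate 3.

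The 3 Gli1+ (Tdtomato+) and the 3 Gli1- (Tdtomato-) libraries were made from cells sorted as CD45-, CD31- and Ter119- and then by red fluorescence. All cells, labelled or not, carried the *Gli1-CreERT2; tdTomato* alleles on a c57BL/6 background, that is a tamoxifen-activated Cre recombinase driven by *Gli1* and the tdTomato reporter that this Cre switches on. Both populations were taken from the same mice, 1 month old, 24 h after tamoxifen. Gli1- therefore means that no label was present at that time, and a cell that made little Cre is counted there too. The tissue is costal cartilage in the methods of the study and growth plate in the labels. In these libraries RNA was measured and not protein at the cell surface. The paper stained cells of the growth plate, not of costal cartilage, for CD90, CD51, CD105 and CD200 by flow cytometry. It reports nearly all Gli1+ cells as negative for CD90, and a larger CD51+ CD105+ fraction in Gli1+ than in Gli1- cells. The CD51+ CD105- CD200+ fraction is described there as showing no great increase in Gli1+ cells. None of the 10 proteins was part of the gate for RNA, so no difference between populations was built in by the sort.

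In the usual scheme for mouse skeletal stem cells, CD51 is required and CD90 and CD105 must be missing, while CD200 separates the stem cell from its more committed offspring. CD51 is the alpha V chain of integrins that bind vitronectin and osteopontin, CD105 (endoglin) is a co-receptor for BMP and TGF-beta ligands, CD90 is a lipid-anchored adhesion protein, and CD200 is a membrane glycoprotein that restrains myeloid cells. PDGFRA, the leptin receptor and CD146 mark stromal and perivascular progenitors of bone marrow and periosteum. CD44 binds hyaluronan, podoplanin is a mucin-like protein of stromal and lymphatic cells and CD73 turns extracellular AMP into adenosine. CD44 and CD73 belong to the panels used for cultured mesenchymal stromal cells.

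Totals per library lay between 17114101 and 18602482 counts, so depth differed little. *Gli1*, the driver of the label, had 86, 104 and 152 counts in the Gli1+ libraries and 14, 19 and 46 in the Gli1- libraries. It was higher in 3 of 3 pairs, beside 17.6% of all genes. Its log2FC was 2.09 (SE 0.68, unadjusted p = 0.0152, adjusted p = 0.9999, edgeR without the block). The main test thus did not call even the driver of the label. DESeq2's Wald test with the block did (adjusted p = 0.0189). Gli1+ replicate 1 stood apart, with 15000 genes that had a count against 20666 to 23360 in the other libraries. Gli1- replicate 1 carried leukocyte transcripts in spite of the CD45 gate: 12 leukocyte markers summed to 3672 CPM there and to 16.8 to 88.2 CPM in the other 5 libraries, and *Ptprc*, which encodes CD45, was at 54.7 CPM against 0.0525 to 1.11. Replicate 2 of both populations held the highest levels of cartilage collagens, with *Col2a1* at 12239 CPM (Gli1+) and 13534 CPM (Gli1-) against 2130 to 3240 CPM elsewhere. *Col2a1* and *Col9a2* (476 to 5229 CPM), defining collagens of cartilage, were abundant in all 6 libraries. All 12 chondrocyte markers listed could be tested, 4 with a log2FC above 0 and 8 below it, beside 50.1% of all genes above 0. None (0) of the 12 had an unadjusted p under 0.05 without the replicate block and 1 did with it, beside 3.47% and 8.61% of all genes. This was *Comp*, named after its values were seen, which had less RNA in the Gli1+ library of each pair. DESeq2's Wald test with the block called *Comp* (log2FC -1.41, adjusted p = 0.000367), beside 3.27% of all genes it tested. The other gates left little behind, since 12 endothelial markers summed to at most 29.9 CPM and the erythroid markers to at most 20.2 CPM. The endothelial sum was lower in Gli1+ (5.13 to 8.04 CPM) than in Gli1- libraries (8.15 to 29.9 CPM). All 6 endothelial markers tested had a log2FC below 0 (median -1.57), and 0 had an unadjusted p under 0.05 in edgeR without the block.

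The promoters of 4 members are shown, those with an unadjusted p under 0.05 once libraries of the same replicate number were compared with each other: *Pdgfra* and *Cd200* had less RNA in Gli1+ cells and *Cd44* and *Itgav* more. Each is the 250 bases before the start that RefSeq gives on GRCm38.p6, 5′ to 3′ on the strand of the gene, and 9 of the 10 members were matched in that table. The windows lie at chr5:75152001-75152250 (plus strand) for *Pdgfra*, chr16:45409054-45409303 (minus) for *Cd200*, chr2:102901666-102901915 (minus) for *Cd44* and chr2:83724147-83724396 (plus) for *Itgav*. Capitals mark any match, on either strand, to the TATA box (spelled TATAAA), to the CCAAT box by its name, to the GC box (spelled GGGCGG), to the GLI site (spelled GACCACCCA) or to the AP-1 site (spelled TGANTCA).
Pdgfra: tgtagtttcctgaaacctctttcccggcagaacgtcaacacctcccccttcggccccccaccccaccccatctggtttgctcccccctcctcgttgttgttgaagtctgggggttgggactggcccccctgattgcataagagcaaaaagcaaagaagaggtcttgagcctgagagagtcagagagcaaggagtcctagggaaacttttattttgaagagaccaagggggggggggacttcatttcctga
Cd200: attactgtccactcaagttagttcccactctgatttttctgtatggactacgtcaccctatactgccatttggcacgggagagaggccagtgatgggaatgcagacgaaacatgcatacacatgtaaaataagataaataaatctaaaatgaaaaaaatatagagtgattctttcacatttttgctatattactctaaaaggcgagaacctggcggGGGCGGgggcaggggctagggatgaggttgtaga
Cd44: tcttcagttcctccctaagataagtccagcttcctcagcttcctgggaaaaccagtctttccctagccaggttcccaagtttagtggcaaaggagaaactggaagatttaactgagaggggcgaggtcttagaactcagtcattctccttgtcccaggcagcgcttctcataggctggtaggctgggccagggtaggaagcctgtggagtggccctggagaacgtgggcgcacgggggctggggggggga
Itgav: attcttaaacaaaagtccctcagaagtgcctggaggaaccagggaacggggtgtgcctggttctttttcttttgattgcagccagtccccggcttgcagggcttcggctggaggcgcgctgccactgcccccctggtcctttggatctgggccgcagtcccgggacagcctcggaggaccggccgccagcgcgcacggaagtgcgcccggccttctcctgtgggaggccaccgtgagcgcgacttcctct
The only match in these 4 windows was 1 GC box in that of *Cd200*, a motif held by 32.7% of all 32851 promoter windows of that length. None of the 4 held the GLI letters, which 0.225% of all windows did, or a TATA box (12.4%), a CCAAT box (33.8%) or an AP-1 site (6.75%). The base composition differed, from 42.4% G and C for *Cd200* and 54.4% for *Pdgfra* to 56.4% for *Cd44* and 64.4% for *Itgav*, beside a median of 52.4% over all windows.

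To ask whether Gli1+ cells carried more of the RNAs of stem cell markers, levels were expressed in CPM, with counts divided by a library size that the TMM method had corrected for composition, and compared with edgeR's quasi-likelihood test, with p-values adjusted over all genes (Benjamini-Hochberg). Genes were called at an adjusted p under 0.05 and a |log2FC| over 1, where log2FC is the difference of Gli1+ minus Gli1- on the log2 scale. Of the 10 members 0 were called, beside 0% of all genes tested, and *Gli1* was not called either. The paper used the same thresholds, names no test and reports a large set of genes as differing between these populations. The 0% found here does not match that result, and the cause was not tested. DESeq2 called 1 member, *Pdgfra*, and 30 genes, and limma-voom 0 of either. At an unadjusted p under 0.05 in edgeR there was 1 member, *Pdgfra*, lower in Gli1+ cells, beside 514 genes or 3.47% (2.04% lower and 1.43% higher). The libraries of the populations did not overlap for 2 members, *Pdgfra* and *Lepr*, both lower, beside 8.49% of all genes (4.45% lower and 4.04% higher). In 3 of 3 pairs of the same replicate number, 5 members were lower in Gli1+ cells (*Pdgfra*, *Lepr*, *Cd200*, *Eng* and *Mcam*), beside 19.9% of all genes, and 2 were higher (*Itgav* and *Cd44*), beside 17.6%. A |log2FC| over 1 was reached by 4 members, *Pdgfra*, *Cd200*, *Lepr* and *Itgav*, beside 16.7%. The median log2FC of the members was -0.15, with 4 of 10 above 0, against 0.0013 and 50.1% over all genes.

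The replicate numbers were treated as pairs, as described under the processing, although which mice gave each library is not stated. With the replicate number as a block, edgeR again called 0 members and 0% of genes, while 4 members had an unadjusted p under 0.05 (*Pdgfra*, *Cd200*, *Cd44* and *Itgav*), beside 8.61% of all genes. DESeq2's Wald test with the block called 2 members, *Pdgfra* and *Cd200*, both lower in Gli1+ cells, beside 3.27% of the genes it tested (2.39% lower). *Cd44*, higher in Gli1+ cells, passed its limit on the adjusted p (0.04998) but not the one on the log2FC (0.92).

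**Figure D1:**
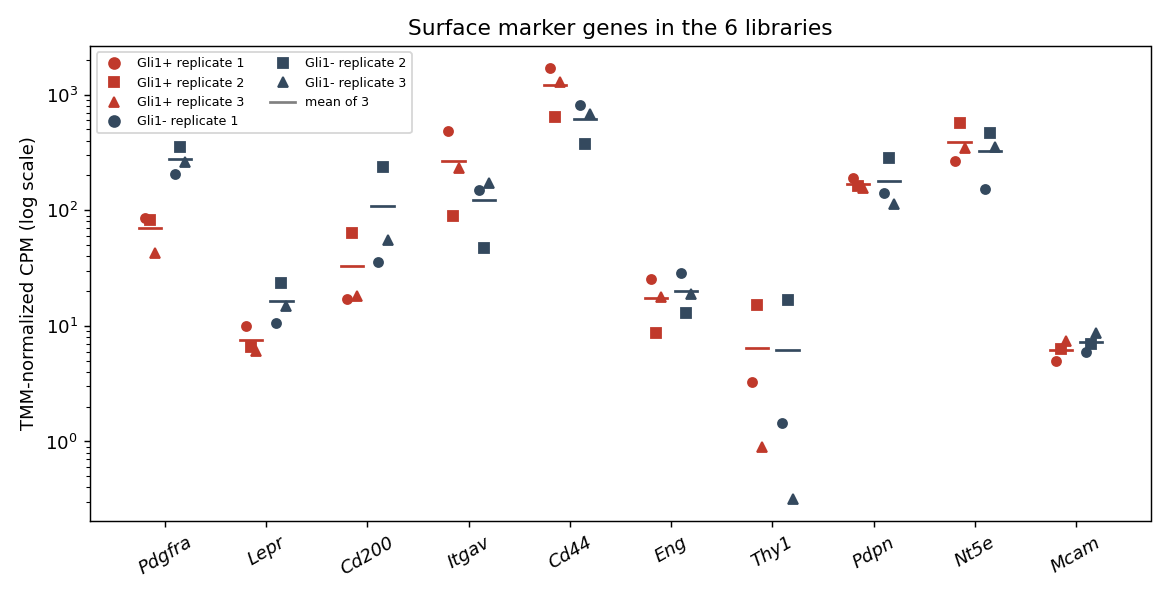
Level of the 10 marker genes in each library, as TMM-normalized CPM on a log axis, with Gli1+ in red, Gli1- in dark blue, symbols for replicates 1 to 3 and a line at the mean of 3. For *Pdgfra* and *Lepr* all red symbols lie below all blue ones, and for *Thy1*, *Cd200* and *Itgav* the square of replicate 2 lies far from the other replicates in both populations.

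*Pdgfra* encodes the receptor through which PDGF-A drives the growth of mesenchymal progenitors. It lies on chromosome 5 from 75152292 to 75198215 on the plus strand (ENSMUSG00000029231, mm10). The Gli1+ libraries were at 85.4, 82.0 and 43.1 CPM for replicates 1, 2 and 3, and the Gli1- libraries at 206, 355 and 264 CPM. The populations did not overlap, and each Gli1+ library was below each Gli1- library. The log2FC was -1.97 (SE 0.46, 95% interval -3.02 to -0.92), which is 3.92-fold less RNA in Gli1+ cells. The unadjusted p was 0.00249, a value that 18 of the 14801 genes went below, and after adjustment it was 0.9999 for this gene and for the other members (edgeR). In bulk RNA, fewer cells that express a gene and less RNA per cell cannot be told apart.

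In the 3 pairs of the same number, *Pdgfra* was 2.41, 4.33 and 6.13 times as high in Gli1- as in Gli1+ cells. The leukocyte-bearing library, Gli1- replicate 1, had the lowest *Pdgfra* of its population, and without it the log2FC was -2.15. With each library left out in turn the log2FC stayed between -2.16 and -1.72. DESeq2's Wald test called *Pdgfra* both without the block (adjusted p = 0.0450) and with it (log2FC -2.01, adjusted p = 4.17e-05), whereas edgeR with the block did not (adjusted p = 0.336). Adjusted p-values of *Pdgfra* over all alternatives ran from 4.17e-05 to 1.0. The exons of *Pdgfra* share 456 bases (4.55% of its exonic length) with the antisense gene *Gm42802*, whose reads cannot be told apart where strand was not counted.

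*Lepr* (ENSMUSG00000057722, chromosome 4, 101717404 to 101815352, plus strand) encodes the leptin receptor, by which stromal cells of adult bone marrow are traced. Its counts were low, at 106 to 357 a library. The Gli1+ libraries were at 10, 6.51 and 6.09 CPM and the Gli1- libraries at 10.6, 23.7 and 14.8 CPM. The populations were separated only by the narrow gap between the replicates 1, and the replicate 2 and 3 pairs differed by 3.64 and 2.42 times. The log2FC was -1.12 (SE 0.51, 95% interval -2.28 to 0.05, unadjusted p = 0.0583), and the gene was not called with or without the block (adjusted p = 0.608 in edgeR with the block). With each library left out in turn the log2FC lay between -1.39 and -0.78, the latter without Gli1- replicate 2.

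*Cd200* (ENSMUSG00000022661, chromosome 16, 45382135 to 45409053, minus strand) encodes the marker that must be present on the mouse skeletal stem cell. The Gli1+ libraries held 17.04, 63.2 and 18.0 CPM and the Gli1- libraries 35.5, 235 and 54.9 CPM. The populations overlapped, because replicate 2 was by far the highest of each, but within every pair Gli1- was the higher, by 2.09, 3.71 and 3.05 times. The log2FC was -1.73 (SE 0.84, 95% interval -3.65 to 0.20, unadjusted p = 0.0728, edgeR's quasi-likelihood test). With the block the standard error fell to 0.29, at a log2FC of -1.52 and an unadjusted p of 0.00243, and the adjusted p was 0.350. DESeq2's Wald test with the block called *Cd200* (adjusted p = 0.00138, against 0.00138 to 1.0 over the alternatives). Without Gli1- replicate 2 the log2FC was -0.48 and without Gli1+ replicate 2 it was -2.64, whereas it was -1.40 when both libraries of replicate 2 were left out.

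*Itgav* and *Cd44* had more RNA in the Gli1+ library of every pair. *Cd44* (ENSMUSG00000005087, chromosome 2, 102811141 to 102901665, minus strand) had the highest mean CPM of the members, although *Nt5e* exceeded it in Gli1- replicate 2. Its levels were 1718, 647 and 1279 CPM in Gli1+ and 808, 375 and 679 CPM in Gli1- cells. The ratio within pairs was narrow, at 2.13, 1.73 and 1.88, although the populations overlapped through the low value of Gli1+ replicate 2. Its log2FC was 0.97 (SE 0.55, 95% interval -0.30 to 2.24, unadjusted p = 0.118), and 0.93 with the block (SE 0.25, unadjusted p = 0.0113, adjusted p = 0.432 in edgeR). DESeq2's Wald test with the block gave a log2FC of 0.92 and an adjusted p of 0.04998. That passed the limit on p and missed the call on the log2FC alone. CD44 is also a protein of leukocytes, and without the leukocyte-bearing Gli1- replicate 1 the log2FC was 1.20. Without Gli1+ replicate 1 it was 0.61.

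*Itgav* (ENSMUSG00000027087, chromosome 2, 83724397 to 83806916, plus strand) was at 481, 88.6 and 231 CPM in Gli1+ cells and at 151, 47.4 and 172 CPM in Gli1- cells. Gli1+ replicate 1 was the highest of all and both replicates 2 were the lowest of their populations. The ratio within pairs was 3.18, 1.87 and 1.34. The log2FC was 1.11 (SE 0.71, 95% interval -0.53 to 2.75, unadjusted p = 0.156), and 1.00 with the block (SE 0.33, unadjusted p = 0.0263, adjusted p = 0.509 in edgeR). Without Gli1+ replicate 1 the log2FC of *Itgav* was 0.35, and the other 5 libraries thus gave a much smaller difference. Its exons share 634 bases (5.90%) with *Gm13684* on the opposite strand, so reads of these genes too cannot be told apart where strand was not counted.

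**Figure D2:**
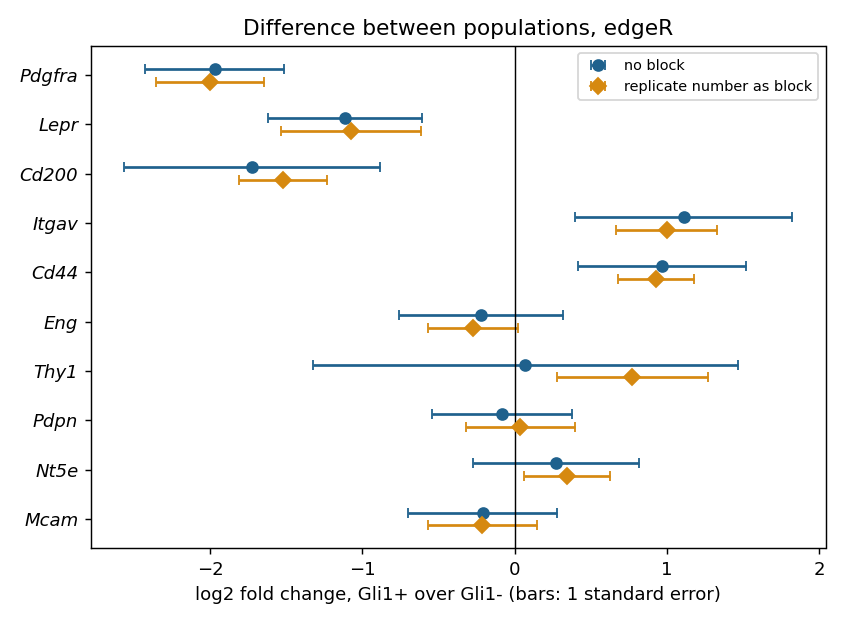
Difference between the populations for each marker gene, as the log2FC of Gli1+ over Gli1- from edgeR, without a block (circles) and with the replicate number as a block (diamonds), with bars of 1 standard error. The estimates of *Pdgfra*, *Lepr* and *Cd200* lie at -1.97, -1.12 and -1.73 and those of *Itgav* and *Cd44* at 1.11 and 0.97, with shorter bars under the block for *Cd200*, *Itgav* and *Cd44*.

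The markers that are absent from the skeletal stem cell in the classical scheme, CD90 and CD105, gave no difference that could be told from the spread. *Eng* (ENSMUSG00000026814, chromosome 2, 32646595 to 32682669, plus strand) was at 25.4, 8.66 and 17.9 CPM in Gli1+ and 28.8, 12.998 and 18.8 CPM in Gli1- cells. The Gli1+ value was the lower in 3 of 3 pairs, by 1.05 to 1.501 times, and the log2FC was -0.22 (95% interval -1.46 to 1.02). Without the block, the interval reaches past 1 log2 unit in both directions. With the block the log2FC was -0.28 (SE 0.30, unadjusted p = 0.391 in edgeR). Neither fit showed more *Eng* RNA in Gli1+ cells. The paper reports the CD51+ CD105+ fraction as higher in Gli1+ growth plate cells. That is a measure of protein in another tissue, so these values do not settle whether *Eng* RNA followed it there.

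*Thy1* (ENSMUSG00000032011, chromosome 9, 44043384 to 44048579, plus strand) had the widest spread of the members, from 0.317 to 16.6 CPM, or 6 to 251 counts. Both libraries of replicate 2 were high, at 15.1 CPM (Gli1+) and 16.6 CPM (Gli1-), and the other 4 were at 0.317 to 3.28 CPM. The log2FC of 0.07 had a standard error of 1.40 (95% interval -3.14 to 3.28), and it moved from -1.57 without Gli1+ replicate 2 to 2.81 without Gli1- replicate 2. It was 0.77 (SE 0.50) with the block, 0.93 with limma-voom and 1.18 without both libraries of replicate 2. No direction can be given for *Thy1*.

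*Pdpn*, *Nt5e* and *Mcam* had log2FC values near 0, with wide intervals. *Pdpn* (ENSMUSG00000028583, chromosome 4, 143267431 to 143299564, minus strand) was at 192, 161 and 157 CPM in Gli1+ and 141, 286 and 113 CPM in Gli1- cells, with a log2FC of -0.08 (95% interval -1.14 to 0.98) that was 0.42 without both libraries of replicate 2. *Nt5e* (ENSMUSG00000032420, chromosome 9, 88327197 to 88372092, plus strand) was at 266, 563 and 345 CPM in Gli1+ and 154, 465 and 354 CPM in Gli1- cells, a log2FC of 0.27 (95% interval -0.98 to 1.52). *Mcam* (ENSMUSG00000032135, chromosome 9, 44134469 to 44142727, plus strand) was the steadiest member, at 4.97 to 7.40 CPM in Gli1+ and 6.00 to 8.62 CPM in Gli1- cells, and its log2FC was -0.21 (95% interval -1.34 to 0.92). The Gli1+ library was the lower in 3 of 3 pairs for *Mcam*, by 1.11 to 1.21 times. The highest and lowest libraries differed by 1.73 times for *Mcam*, and by 52.4 times for *Thy1* and 4.28 times for the median gene tested.

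**Figure D3:**
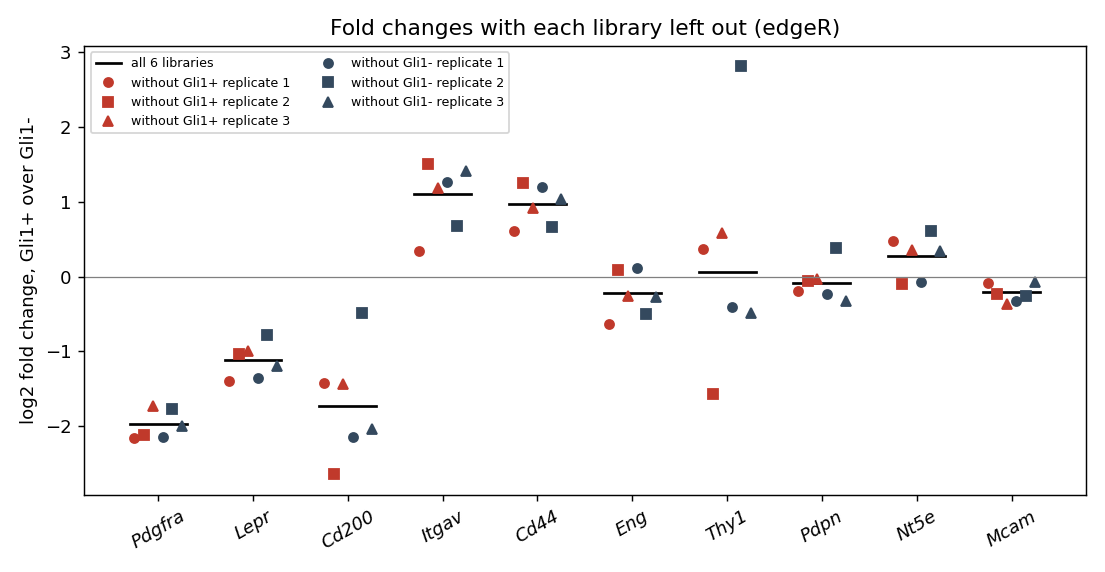
The log2FC of Gli1+ over Gli1- for each marker gene with each of the 6 libraries left out in turn (symbols) and with all libraries (black line). *Pdgfra* stays between -2.16 and -1.72, while *Thy1* moves between -1.57 and 2.81 and *Cd200* between -2.64 and -0.48 with the library of replicate 2 that is left out.

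For 6 of the 10 markers replicate 2 stood well off, in the same direction in both populations. Relative to the mean of replicates 1 and 3, on the log2 CPM scale, *Thy1* in replicate 2 was higher by 3.04 in Gli1+ and by 4.36 in Gli1- cells. *Cd200* was higher there by 1.85 and 2.41, and *Nt5e* by 0.89 and 1.00. In the opposite direction *Itgav* in replicate 2 differed by -1.91 and -1.76, *Cd44* by -1.19 and -0.98 and *Eng* by -1.29 and -0.83. *Pdgfra* differed little there (0.43 and 0.61) beside its difference of -1.97 between populations, and so did *Mcam* (0.06 and -0.03). *Lepr* (-0.26 and 0.91) and *Pdpn* (-0.11 and 1.18) were high only in Gli1- replicate 2. Over all genes the median of this difference was 0.14 in Gli1+ and 0.017 in Gli1- cells. That signed median does not give the share of all genes that stood as far off, which was not counted. The deviations of both libraries of replicate 2 correlated at 0.720 across all genes tested, so the shift was not particular to the markers. The cartilage collagens were highest in the same libraries, and their part in these differences was not tested.

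**Figure D4:**
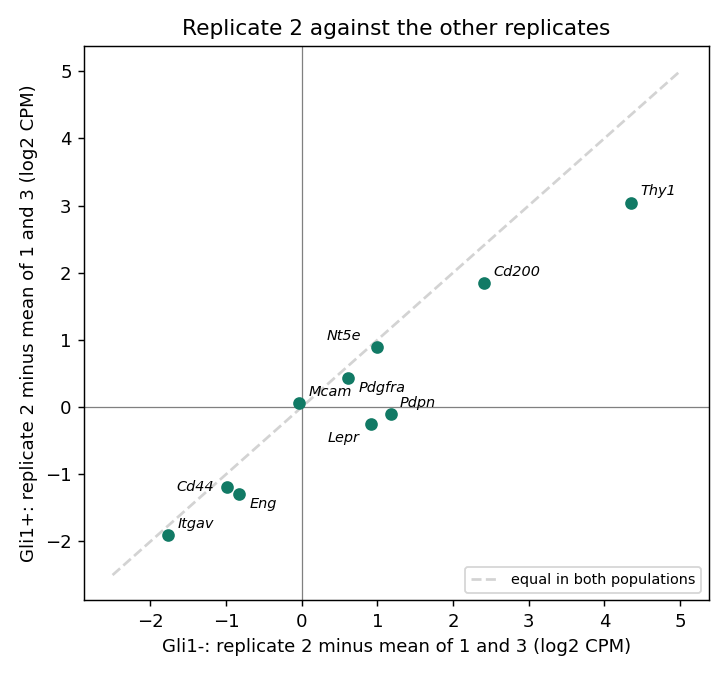
Replicate 2 minus the mean of replicates 1 and 3 for each marker gene, in log2 CPM, in Gli1- cells (horizontal axis) and Gli1+ cells (vertical axis), with a dashed line where both are equal. *Thy1* and *Cd200* lie at the upper right (4.36 and 3.04, 2.41 and 1.85) and *Itgav*, *Cd44* and *Eng* at the lower left, near the dashed line.

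Levels of different genes were compared per kilobase of gene length (CPM per kb), with the lengths given in the table. *Cd44* was the highest member in 5 of 6 libraries, at 179 ± 79.4 CPM per kb (SD, n = 3) in Gli1+ and 91.6 ± 32.8 in Gli1- cells, and *Pdpn* came next at 93.6 ± 10.5 and 99.1 ± 50.9. In Gli1- replicate 2 *Pdpn* was the highest and *Cd44* the third. *Nt5e* followed at 45.5 ± 17.9 and 37.7 ± 18.3 CPM per kb. The middle of the order differed between populations: *Itgav* stood at 24.8 ± 18.5 in Gli1+ and 11.5 ± 6.21 in Gli1- cells, *Pdgfra* at 7.001 ± 2.34 and 27.5 ± 7.49 and *Cd200* at 9.86 ± 7.95 and 32.6 ± 33.1. *Itgav* was above *Pdgfra* in all Gli1+ libraries, in replicate 2 by little (8.25 against 8.18), and below it in all Gli1- libraries. *Eng* (4.28 ± 2.08 and 4.98 ± 1.97), *Thy1* (2.15 ± 2.54 and 2.05 ± 3.04), *Mcam* (1.86 ± 0.364 and 2.15 ± 0.395) and *Lepr* (1.07 ± 0.304 and 2.32 ± 0.948) had the lowest means. Some libraries of *Itgav*, *Pdgfra* and *Cd200* reached down among them, with *Cd200* at 5.13 in Gli1+ replicate 1 and 5.41 in Gli1+ replicate 3. *Thy1* overlapped with *Mcam* and *Lepr* in both populations, while *Mcam* and *Lepr* overlapped in the Gli1- libraries and not in the Gli1+ libraries, where *Mcam* was the higher.

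Because CD200 present and CD105 absent is the pattern of the mouse skeletal stem cell, the ratio of *Cd200* to *Eng* per kb was taken in each library. It was 0.816, 8.90 and 1.23 in Gli1+ and 1.51, 22.0 and 3.56 in Gli1- replicates 1, 2 and 3. The ratio was the lower in Gli1+ cells in 3 of 3 pairs, but the populations overlapped. On the log2 scale the mean was 1.05 ± 1.84 (SD, n = 3) in Gli1+ and 2.29 ± 1.98 (SD, n = 3) in Gli1- cells, a difference of -1.24. Within pairs the difference was -0.88, -1.31 and -1.54, with an SD of 0.33, so it was small beside the spread within populations and large beside that between pairs. For *Pdgfra* over *Pdpn* per kb the log2 means were -3.80 ± 0.47 and -1.77 ± 0.47 (SD, n = 3) and no libraries overlapped. For *Pdgfra* over *Cd44* they were -4.63 ± 0.98 and -1.70 ± 0.97 (SD, n = 3), again without overlap. Both ratios of *Pdgfra* restate its own difference, since *Pdpn* differed little between populations and *Cd44* was higher in Gli1+ cells. Their lack of overlap is therefore no separate evidence. All these ratios are given with no test, since the genes were chosen with their levels known. Each describes RNA of whole populations and says nothing of whether the same cells carry both products.

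The ligands and partners of the members were taken from a list of 32 genes, and *Bmp10* and *Lep* had no count in any library. Of the 24 that were tested, 8 had a log2FC above 0 and 16 below it, beside 50.1% of all genes above 0. The edgeR test called 0, beside 0% of all genes. An unadjusted p under 0.05 was reached by 3 without the block, 1 higher and 2 lower in Gli1+ cells, beside 3.47% of all genes (1.43% higher and 2.04% lower). With the block it was reached by 5, 1 higher and 4 lower, beside 8.61% of all genes. *Pdgfa*, the ligand of PDGFRA, was at 65.2, 57.7 and 83.0 CPM in Gli1+ and 35.3, 43.4 and 34.3 CPM in Gli1- cells. Every Gli1+ value exceeded every Gli1- value, opposite to the receptor, with a log2FC of 0.87 (SE 0.37, unadjusted p = 0.0450, and 0.9999 once adjusted in edgeR). The related receptor gene *Pdgfrb*, chosen after its values were seen, was at 22.5 to 45.5 CPM in Gli1+ and 37.7 to 60.8 CPM in Gli1- cells, with a log2FC of -0.74 (SE 0.44, unadjusted p = 0.131).

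*Has1*, a synthase of the hyaluronan that CD44 binds, was at 24.7, 116 and 41.6 CPM in Gli1+ and 312, 530 and 212 CPM in Gli1- cells. The libraries did not overlap, and the log2FC was -2.53 (SE 0.68, unadjusted p = 0.00575). The intracellular linkers of CD44 had a log2FC of 0.19 (SE 0.56) for *Msn* and 0.09 (SE 0.39) for *Ezr*. *Itgb8*, which encodes a beta chain that pairs with alpha V, was at 1.69, 3.38 and 2.57 CPM in Gli1+ and 9.15, 7.63 and 15.3 CPM in Gli1- cells, a log2FC of -2.07 (SE 0.57, unadjusted p = 0.00666). The abundant beta chain *Itgb1* had a log2FC of 0.23 (SE 0.52), and *Spp1*, which encodes the alpha V ligand osteopontin, one of -0.54 (SE 0.79) with replicate 2 the highest of each population. DESeq2's Wald test with the block called *Has1* (adjusted p = 1.73e-08) and *Itgb8* (adjusted p = 0.0121), and not *Pdgfa* (adjusted p = 0.224). Of all genes it tested, 3.27% were called.

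**Figure D5:**
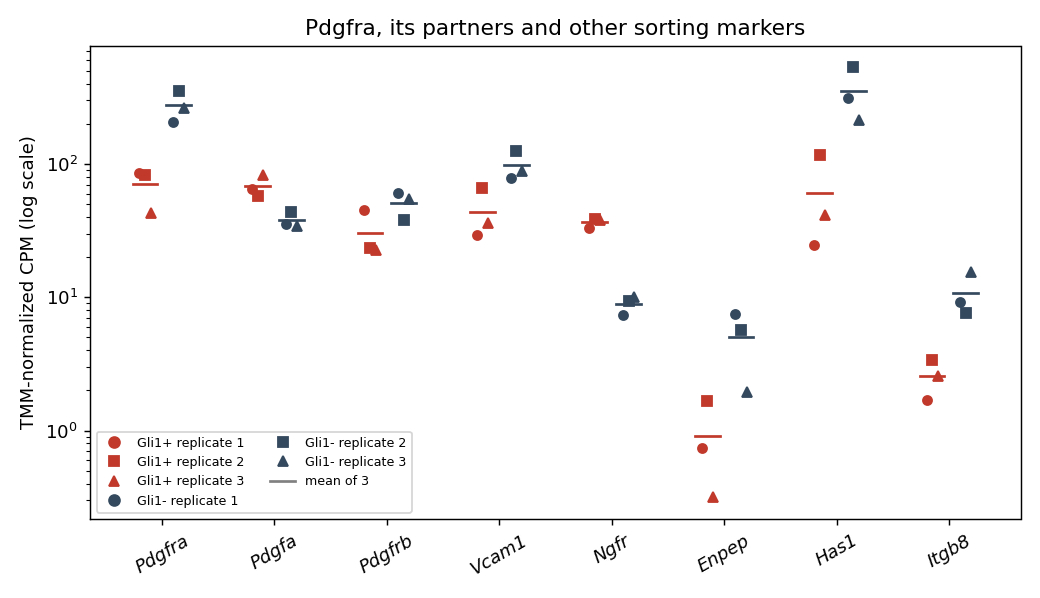
TMM-normalized CPM on a log axis of *Pdgfra*, its ligand gene *Pdgfa*, the related *Pdgfrb*, 3 other sorting markers and 2 partners of CD44 and CD51, by library, with a line at the mean of 3. Red Gli1+ symbols lie below the blue Gli1- symbols for *Pdgfra*, *Vcam1*, *Enpep*, *Has1* and *Itgb8*, and above them for *Pdgfa* and *Ngfr*. For *Pdgfrb* the populations overlap, with the red symbol below the blue one in 3 of 3 pairs.

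Of 20 other surface markers used to gate skeletal or stromal cells, 19 were tested. A log2FC above 0 was found for 5 and one below it for 14, beside 50.1% of all genes above 0. The edgeR test called 0, beside 0% of all genes. An unadjusted p under 0.05 was reached by 4 without the block, 1 higher and 3 lower in Gli1+ cells, beside 3.47% of all genes (1.43% higher and 2.04% lower). With the block it was reached by 6, 1 higher and 5 lower, beside 8.61% of all genes. *Ngfr* (CD271), a marker of human marrow stromal cells, was at 32.9, 38.9 and 38.2 CPM in Gli1+ and 7.40, 9.42 and 10.1 CPM in Gli1- cells, a log2FC of 2.03 (SE 0.39, unadjusted p = 0.000804). *Vcam1* (CD106) was at 29.3, 66.5 and 35.9 CPM against 78.5, 125 and 89.2 CPM, a log2FC of -1.15 (SE 0.45, unadjusted p = 0.0335). *Enpep*, which encodes the 6C3 antigen of stromal progeny, was at 0.741, 1.66 and 0.315 CPM against 7.45, 5.64 and 1.96 CPM. Its log2FC was -2.47 (SE 0.87, unadjusted p = 0.0220). Counts of *Enpep* were low, at 14, 27 and 6 in the Gli1+ libraries, and its highest level was in the leukocyte-bearing Gli1- replicate 1. For these 3 genes the populations did not overlap, as for 8.49% of all genes. DESeq2's Wald test with the block called each of them, beside 3.27% of all genes it tested. It also called *Ly6a* (Sca-1, adjusted p = 0.00714), chosen once its values were known. *Ly6a* was at 0, 6.75 and 0.473 CPM in the Gli1+ libraries and 7.65, 30.4 and 2.64 CPM in the Gli1- libraries, lower in 3 of 3 pairs. *Bst1*, the last of the 4 without the block, was at 92.8 CPM in the leukocyte-bearing Gli1- replicate 1 and at 0.473 to 1.84 CPM in the other 5 libraries. Its log2FC of -4.89 (SE 1.69) thus rested on that library. The most abundant of these markers, *Cd9*, *Cspg4*, *Itgb1*, *Cd82* and *Cd24a*, had log2FC values of -0.42 (SE 0.69), 0.22 (SE 0.56), 0.23 (SE 0.52), 0.54 (SE 0.57) and -0.63 (SE 0.56).

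Cells of the connective tissue around cartilage were looked at because PDGFRA, the leptin receptor and CD90 mark them. Of 12 fibroblast and perichondrium markers 11 were tested, and 9 of these had a log2FC under 0, with a median of -0.89. Over all genes 50.1% were above 0 and the median was 0.0013. Without the block 0 had an unadjusted p under 0.05, beside 3.47% of all genes. With it 4 did, 1 higher and 3 lower in Gli1+ cells, beside 8.61% of all genes. DESeq2's Wald test with the block called 3 of the 11, beside 3.27% of all genes it tested. *Col3a1* (log2FC -1.34, adjusted p = 0.00608) and *Dpt* (log2FC -1.45, adjusted p = 0.0224), both named after their values were seen, were lower in Gli1+ cells, as *Pdgfra* was. *Col6a3*, the most abundant of the list, was higher (log2FC 1.34, adjusted p = 0.00726), at 6606, 1432 and 5657 CPM in the Gli1+ libraries and 1705, 657 and 2843 CPM in the Gli1- libraries. The summed level of the list overlapped between populations with *Col6a3* (5675 to 9782 and 4005 to 10674 CPM) and without it (2242 to 4244 CPM in Gli1+ and 2300 to 10017 CPM in Gli1- libraries). The 10 markers of pericytes and smooth muscle summed to 29.7 to 122 CPM in Gli1+ and 27.1 to 61.2 CPM in Gli1- libraries, led by *Acta2* and *Mylk*, and the 10 of skeletal muscle, led by *Tnnt3* and *Acta1*, to 1.06 to 36.7 and 4.28 to 25.7 CPM. In the pericyte list 2 of 8 tested genes had an unadjusted p under 0.05 with the block, 1 higher and 1 lower, beside 8.61% of all genes. DESeq2's Wald test with the block called 1, *Cnn1*, named after its values were seen, beside 3.27% of all genes it tested. *Cnn1* was higher in Gli1+ cells (log2FC 2.90, adjusted p = 0.0370), at 4.76, 9.33 and 2.05 CPM against 0.103, 2.12 and 0.582 CPM. The part of connective tissue, pericyte or muscle cells in the difference of *Pdgfra* was not tested.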

How the data were processed

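RNA from 3 Gli1+ and 3 Gli1- sorted populations was sequenced as poly-A libraries. The authors deposited 1 table of raw counts, the whole number of reads on each of 54532 genes in each library, with gene lengths. HISAT2 2.0.5 and featureCounts 1.5.0-p3 on mm10 are named in the submitters' processing notes. The annotation and the use of strand are not given in the sources used here. All 10 members had the coordinates of GENCODE M21. Every column of library values was used.

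Genes were filtered with filterByExpr (minimum count of 10), which left 14801, scaled by TMM and tested with edgeR 4.0.16's quasi-likelihood test in R 4.3.3, without a block, after a check on simulated counts. Intervals are 95% intervals of that test. Same-numbered libraries deviated together (correlations across genes of 0.223, 0.720 and 0.471 for replicates 1, 2 and 3), although Gli1+ replicate 1 correlated more with Gli1- replicate 3 (0.274) than with its own number and Gli1+ replicate 3 with Gli1- replicate 1 at 0.107, and the study took both populations from the same mice, so replicate numbers were treated as pairs. Alternatives (16 planned, 3 added after seeing the data) used DESeq2 1.42.0 and limma 3.58.1, among others. The 10 members are all named, along with *Gli1*, and of the ligand and sorting lists the 5 genes with the highest mean CPM and those at an unadjusted p under 0.05. Of each cell type list the 2 most abundant genes and the genes of the gates were eligible. The members and lists were chosen with earlier results of these data known, so no p-value is given over a list. The methods call the libraries biological replicates, but which mice, single or pooled, gave each library is not stated in the sources used here. Promoters were taken from RefSeq (GRCm38.p6).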

Additional observations from a re-analysis of the deposited data

How the results depend on the processing

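The counts of calls depended on the tool. Of all genes, DESeq2 called 30 without and 428 with the replicate block, and edgeR without a filter on low counts called 267, beside 0 under the other alternatives (514 at an unadjusted p under 0.05 as reported), among them limma-voom and edgeR with the block. Of the 10 members, DESeq2 called 1 without and 2 with the block, and the other alternatives 0. With each library left out in turn both counts stayed at 0. The cause was not tested. *Pdgfra*, *Lepr*, *Cd200*, *Itgav*, *Cd44* and *Mcam* kept their direction in all 18 alternatives. *Pdpn* turned, to 0.024 with limma-voom, 0.036 with edgeR and the block, 0.024 with DESeq2 and the block and 0.42 without replicate 2 of both populations. *Thy1* turned to -0.091 without replicate 1 of both populations. With single libraries left out, *Thy1* ranged from -1.57 to 2.81, *Eng* from -0.63 to 0.12, *Nt5e* from -0.10 to 0.61 and *Pdpn* from -0.33 to 0.38. At 6 and 17 counts in its lowest libraries, *Thy1* is also limited by depth.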
